A study of Mus musculus with 12 samples.

Results

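The comparison set cortex RNA carried through 3 rounds of linear amplification (3X) against cortex RNA of the same mouse amplified once by the standard labelling protocol (1X). It used every probe set of the array other than the manufacturer's controls, 12422 of 12488, on 4 of the 12 arrays of the study. The study asked how closely a profile from nanogram amounts of RNA follows a standard one. It hybridized RNA of cortex, cerebellum and liver from 1 adult NMR-1 mouse to Affymetrix MG_U74Av2 arrays, which hold short oligonucleotide probes grouped into probe sets, each directed at a transcript.

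The 3X group was 3 arrays, each prepared from 1 ng of cortex total RNA. That RNA passed through both rounds of the RiboAmp HS kit and then a labelling in vitro transcription with biotinylated UTP. The 1X group was 1 array prepared from 5 µg of cortex total RNA by the Affymetrix standard protocol, with a labelling transcription only. All the RNA came from frozen tissue of the same animal, and the 3X arrays were technical replicates, so the p-values below measure the spread between arrays of this RNA and not between mice. The 1X group had no replicate. Its array was assumed to vary like the 3X arrays, and the amount of RNA, the kit and the number of amplifications changed together and cannot be told apart. Both cortex groups held RNA of the same animal, so the lists by cell type below group transcripts and do not measure cell numbers. Where cortex is set beside another whole tissue, fewer cells of a type and less RNA per cell cannot be told apart.

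Linear amplification starts from an oligo-dT primer that carries a T7 promoter. Reverse transcriptase copies polyadenylated RNA from its 3′ end, and T7 RNA polymerase then transcribes many antisense copies from each cDNA. When a further round follows, the antisense RNA is primed at random positions, so each round can shorten the product toward the 3′ end of the transcript. The cortex holds excitatory projection neurons, inhibitory interneurons, astrocytes, oligodendrocytes, microglia and vessels, and its most abundant transcripts serve synapses, axons, energy metabolism and the cytoskeleton.

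Values are log2 signals after robust multi-array averaging (RMA), which gives no detection call. A probe set was called when limma's moderated test gave an adjusted p under 0.05 over all 12422 probe sets. A signal was counted as kept when the 95% interval of its difference lay inside 2-fold, since a p above the threshold does not show that 3X and 1X were alike. "Bright" means above the 75th percentile of the probe sets (4.90 at 3X and 4.97 at 1X), and "dim" means below their median (3.44 at 3X and 3.48 at 1X). A difference with a dim side is given as a difference of signals, not as a ratio of RNA.

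The tissue label was checked against cortical markers. Of 31 measured cortical neuron markers, 20 were higher on every 3X cortex array than on every 3X cerebellum array (64.5%, against 8.12% of 8251 genes), and 30 were higher in 1X cortex than in 1X cerebellum (96.8%, against 56.6%). The median level of these markers was 4.55 to 4.61 on the 3X cortex arrays and 5.08 on the 1X cortex array, beside 3.95 to 4.13 at 3X and 3.91 at 1X in cerebellum. The median of 23 hepatocyte genes was 3.90 to 3.96 at 3X and 3.73 at 1X in cortex, against 10.17 in 1X liver. Array medians lay between 3.45 and 3.48 on all 4 cortex arrays.

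The control probe sets, which are not members, changed by group. The 19 yeast and Bacillus controls differed by -0.04 to 0.78, with a median of 0.25, and the 9 bacterial hybridization controls were 1.05 to 2.72 higher at 3X. Beta-actin read by its 3′ control probe set was 8.81, 8.31 and 8.35 on the 3X arrays and 9.17 on the 1X array. Its middle probe set gave 8.09, 7.26 and 7.65 at 3X against 12.09 at 1X, and its 5′ probe set 5.86, 5.41 and 5.63 at 3X against 10.10 at 1X. For beta-actin the end nearest the poly(A) tail thus stayed near the 1X value on every array, while the middle and the 5′ end lay far below it. Gapdh did not follow that order: its 3′ control gave 5.11, 4.92 and 4.84 at 3X against 7.64 at 1X (-2.68), and its middle (-5.45) was lower by more than its 5′ end (-4.05). The 3 probe sets for 18S ribosomal RNA were 8.26 to 10.32 higher at 3X. The 6 probe sets that read the opposite strand of beta-actin and Gapdh were 1.36 to 3.28 higher at 3X. The part of transcript position, ribosomal RNA and strand in the results below was not tested, since probe positions of other genes were not used here.

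Most probe sets kept their signal, and among differences of 2-fold or more losses outnumbered gains. In the cortex fit 3710 of 12422 probe sets were called (29.9%), of which 1847 were higher at 3X (14.9%) and 1863 were lower (15%). Of these, 1106 differed by 2-fold or more (8.9%), and there the directions separated: 297 probe sets were higher at 3X (2.39%) and 809 were lower (6.51%). For 10159 probe sets (81.8%) the interval lay inside 2-fold. The remaining 1157 (9.31%) fell in neither class. The median difference over all probe sets was 0.11, and the median SD over the 3X arrays was 0.107.

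**Figure D1:**
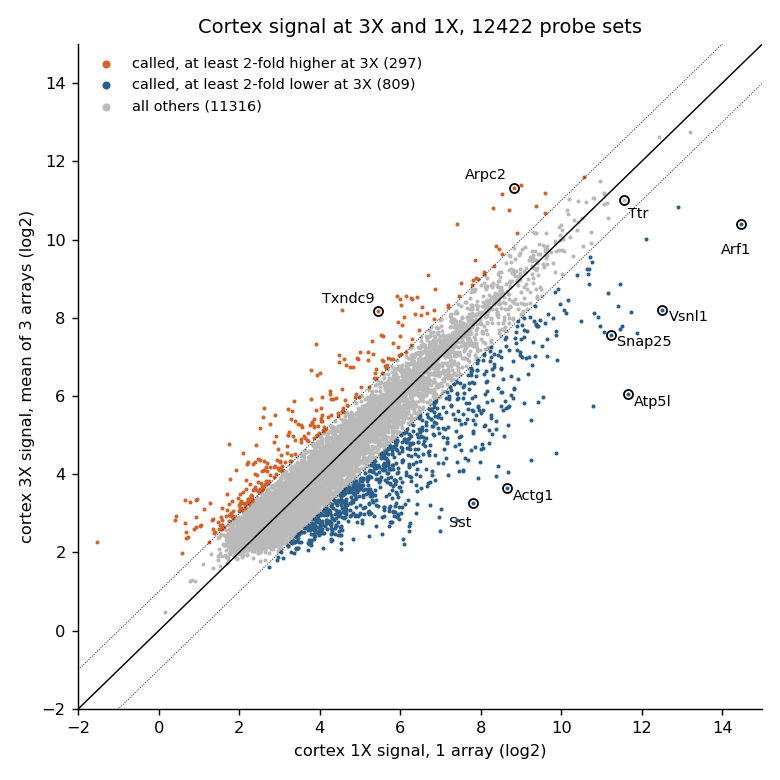
Mean log2 signal of the 3 cortex 3X arrays (vertical) against the log2 signal of the cortex 1X array (horizontal) for 12422 probe sets. The solid line marks equal signal and the dotted lines 2-fold; the 297 probe sets called at least 2-fold higher at 3X are orange and the 809 called at least 2-fold lower are blue, with the blue points reaching farther from the line at high 1X signal.

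The losses lay mainly among signals that were bright at 1X. Of the 809 probe sets at least 2-fold lower at 3X, 552 were bright at 1X (68.2%). Among all 3106 probe sets bright at 1X, 17.8% were called at least 2-fold lower, 2.45% at least 2-fold higher, and 67.7% were kept. Although 2668 of the 3106 (85.9%) were still bright at 3X, 69 (2.22%) were dim there. Only 16 of the 6211 probe sets dim at 1X (0.258%) were bright at 3X. Because brightness at 1X enters the difference itself, the probe sets were also ordered by their level in cerebellum, on arrays outside the comparison. The 3X minus 1X differences of the 2 tissues correlated at r = 0.942, so this order is not free of the response either. In 10 bins of equal size, the share at least 2-fold lower at 3X was 11.3% in the brightest bin and 0.644% in the dimmest, and the share kept was 68.3% in the brightest and 93.3% in the dimmest. From bin 6 to bin 10, the brightest, the share lower ran between 8.62% and 11.4% without a steady rise. The dimmest bin held levels of only 1.54 to 2.42, which left little room for a 2-fold loss. The median difference stayed between 0.08 and 0.13 in every bin, so it was the tails that were wider in the upper bins than in the lowest ones.

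The order of the signals changed more between protocols than between tissues of the brain. Over all probe sets Pearson's r of the 3X cortex arrays with the 1X cortex array was 0.928, 0.916 and 0.926, against 0.990 to 0.994 between 3X cortex arrays. The 1X cortex array correlated at 0.986 with the 1X cerebellum array. Of the 100 brightest probe sets, each 3X array shared 57 or 58 with the 1X array, whereas 3X arrays shared 91 to 93 with each other and 1X cortex shared 85 with 1X cerebellum. These correlations run across probe sets of shared arrays and are descriptions.

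The largest losses among probe sets without a suffix fell on abundant transcripts of several kinds. Atp5l, subunit g of mitochondrial ATP synthase, gave 6.15, 5.90 and 6.12 on the 3X arrays against 11.65 on the 1X array, a difference of -5.60 ± 0.14 (limma SE; adjusted p = 1.35e-06). Actg1, cytoplasmic gamma-actin, gave 3.69, 3.50 and 3.76 at 3X against 8.65 at 1X (-5.01). Cx3cl1, the neuronal membrane chemokine fractalkine, gave 4.46, 4.39 and 4.21 at 3X against 9.24 at 1X (-4.88). On every 3X array these genes lay at least 4.78 below the 1X value, far outside the 3X spread.

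Dynll2, a dynein light chain, was dim on every 3X array at 2.77, 2.92 and 2.77 and bright at 1X at 7.42. Septin7, a filament-forming GTPase, was lower on all 3X arrays at 4.30, 3.62 and 4.28 against 8.66 at 1X. Hint1, a purine nucleoside phosphoramidase, gave 3.999, 3.75 and 3.92 at 3X against 7.92 at 1X (-4.03). Arf1, a GTPase of Golgi vesicle budding, gave the highest signal of the whole table at 1X. It was 10.46, 10.30 and 10.41 at 3X and 14.46 at 1X, a difference of -4.07 ± 0.13 (adjusted p = 1.87e-06), and was still bright on the 3X arrays. Its relative Arf3 gave 4.24, 4.18 and 4.21 at 3X against 8.42 at 1X (-4.21). For these genes none of the 3X arrays overlapped the 1X value, and the spread at 3X was widest for Septin7.

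The largest gains among probe sets without a suffix were smaller. Csnk2a1, a catalytic subunit of casein kinase 2, gave 5.93, 5.72 and 5.45 at 3X against a dim 2.62 at 1X (3.07 ± 0.19). Txndc9, a thioredoxin-domain protein, gave 8.06, 8.14 and 8.31 at 3X against 5.45 at 1X (2.72 ± 0.14; adjusted p = 1.27e-05), 6.60-fold higher. Arpc2, a subunit of the Arp2/3 actin-branching complex, gave 11.38, 11.09 and 11.47 at 3X against 8.81 at 1X (2.50 ± 0.17). All 3 lay above the 1X value on every 3X array. Arpc2 was thereby among the brightest transcripts at 3X. Ddb1, an adaptor of the CUL4 ubiquitin ligase (2.61), Cd47, the integrin-associated surface protein (2.41), Imp4 of the small-subunit rRNA processing complex (2.30), the phosphatase Pptc7 (2.18) and Polr2l, a small subunit of RNA polymerase (2.10), were also called higher. A second probe set without a suffix did not show such a gain for Ddb1 (0.322), Cd47 (-0.785) or Imp4 (-0.146). Clcn3, a vesicular chloride-proton exchanger, spread more: 6.57, 5.38 and 5.85 at 3X against 3.78 at 1X (2.15 ± 0.37; adjusted p = 0.00364), and the mean of its probe sets was not called (0.46; adjusted p = 0.0829).

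**Figure D2:**
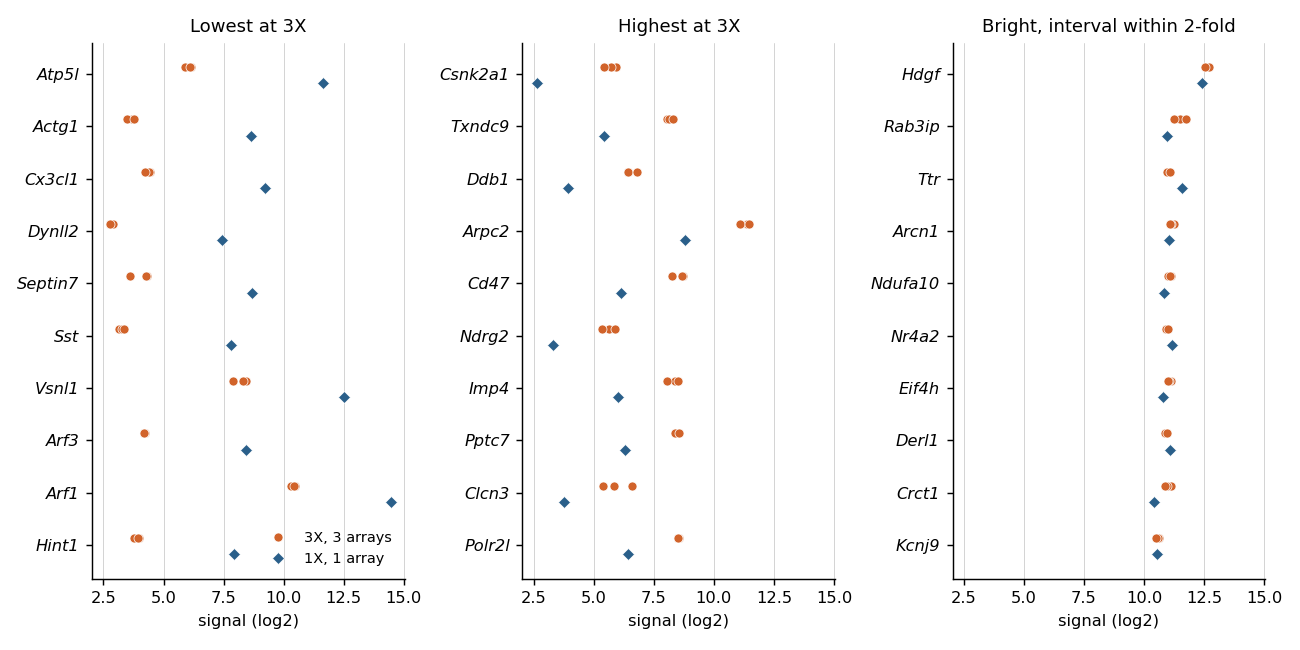
Log2 signal of each cortex array for the 10 lowest and the 10 highest differences among probe sets without a suffix and for the 10 brightest genes whose 95% interval lay inside 2-fold (orange circles, the 3X arrays; blue diamonds, the 1X array). The 3X arrays lie at least 3.92 below the 1X value for every gene on the left, at least 1.59 above it for every gene in the middle panel, and between -0.625 and 0.77 from it for every gene on the right.

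Gains came largely from probe sets whose names carry a suffix, mainly suffix f or r. A suffix marks probes shared with other transcripts or chosen under relaxed rules, so such a signal can come from a related sequence. A suffix was carried by 182 of the 297 probe sets at least 2-fold higher (61.3%), by 111 of the 809 lower (13.7%) and by 2808 of all 12422 (22.6%). Among the 1075 probe sets with suffix f, 9.95% were at least 2-fold higher and 2.60% lower, while among the 9614 without a suffix 1.20% were higher and 7.26% lower. Suffix r had 5.33% higher and 0.999% lower, and suffix i 4.69% and 3.91%. Suffixes s and g went the other way, with 3.23% and 1.46% higher and 11.9% and 9.76% lower. Faap20, a Fanconi anemia core protein, gave the largest such gain that the naming rule chose, at 7.91, 7.99 and 8.65 at 3X against 4.55 at 1X (3.63 ± 0.27). Fam3c, a secreted cytokine-like protein, gave 7.43, 6.94 and 7.61 at 3X against 3.91 at 1X (3.41 ± 0.24). The largest losses with a suffix were those of the tubulin Tuba1c (-4.45), Atp5e, the epsilon subunit of ATP synthase (-3.54), Gnb1, a G protein beta subunit (-3.53), Stmn2, a neuronal stathmin (-3.49), and the tubulin Tuba1a (-3.39). The 3X means were dim for all of these but Stmn2. Probe sets without a suffix gave 0.13 and -0.63 for Stmn2.

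Bright signals that were kept included genes of organelles and translation. Ndufa10, an accessory subunit of respiratory complex I, gave 10.99, 11.11 and 11.09 at 3X against 10.82 at 1X, with an interval of -0.05 to 0.54 for the difference. Eif4h, a cofactor of the translation helicase eIF4A, gave 11.12, 11.04 and 11.00 at 3X against 10.80 at 1X, and Derl1, of the endoplasmic reticulum degradation machinery, 10.89, 10.88 and 10.95 against 11.07. The Ndufa10 and Eif4h values were all slightly above and the Derl1 values all slightly below 1X. Ttr, transthyretin, which in brain marks the choroid plexus, was called lower (-0.56 ± 0.13; adjusted p = 0.0127) yet inside 2-fold, at 11.00, 10.94 and 11.07 at 3X against 11.57 at 1X. That call was lost without 3X replicate 1 (adjusted p = 0.0504), in the fit of all 12 arrays (0.337), with the replicate block (0.241) and after quantile normalization, which gave -0.21 (adjusted p = 0.261).

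Genes that define cortical neurons were split. For gene lists, the probe set with the highest mean over the 4 cortex arrays stood for its gene. On that basis 13.9% of 8251 genes were called higher and 16.5% lower, and among the 2529 genes bright at 1X 13.9% were called higher and 28.6% lower. Of the 31 measured cortical neuron markers 6 were higher and 14 lower, and 14 were kept (81.3% of all genes). Vsnl1, a neuronal calcium sensor, gave 8.42, 7.89 and 8.31 at 3X against 12.51 at 1X (-4.31 ± 0.20; adjusted p = 8.81e-06). Cck, the peptide cholecystokinin, gave 5.73, 5.52 and 5.70 at 3X against 8.54 at 1X (-2.89 ± 0.14). Every 3X array was below the 1X array for both, while both signals stayed bright. The calcineurin subunits went apart: Ppp3r1, the regulatory subunit, fell by 2.19 and Ppp3ca, a catalytic subunit, was 1.09 higher.

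Other markers of cortical identity had lower signals at 1X. Neurod6, a transcription factor of excitatory neurons, gave 4.27, 4.20 and 4.33 at 3X against 4.28 at 1X. Nrgn, neurogranin, which binds calmodulin in dendrites, gave 4.90, 4.68 and 4.84 at 3X against 4.68 at 1X. Both were kept. Tbr1, a deep-layer transcription factor, was dim on the 3X arrays at 2.90, 3.10 and 2.88 against 3.73 at 1X (-0.77; adjusted p = 0.00517). Camk2a, the alpha subunit of calcium/calmodulin kinase II, had among the largest spreads of the bright 3X signals, at 6.70, 5.56 and 5.47 against 5.69 at 1X. Its difference of 0.22 ± 0.42 (adjusted p = 0.708) therefore shows neither a change nor a kept signal.

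Among 20 interneuron genes 1 was higher (5%), 5 were lower (25%) and 14 were kept (70%). The shares over all genes were 13.9%, 16.5% and 81.3%, and 28.6% of genes bright at 1X were lower. Sst, somatostatin, was bright at 1X at 7.80 and dim on every 3X array at 3.14, 3.27 and 3.35 (-4.55 ± 0.14; adjusted p = 1.41e-06). Gad1, the larger GABA-synthesizing enzyme, gave 5.59, 5.04 and 5.04 at 3X against 8.08 at 1X (-2.86), and Npy, neuropeptide Y, 5.98, 5.74 and 6.02 against 7.41 (-1.50). Somatostatin was thus dim at 3X, whereas Gad1 and Npy remained above the 75th percentile at 3X. Gad2, the other GABA-synthesizing enzyme, was the member called higher (0.83), and 2 were called higher without 3X replicate 3. Across the 22 neuropeptide, granin and processing genes, which share Sst, Cck and Npy with these lists, 1 was higher and 11 lower, with a median of -0.54 beside 0.10 for all genes. Pcsk1n, the proSAAS inhibitor of prohormone convertase, gave 5.57, 5.62 and 5.36 at 3X against 7.89 at 1X (-2.38), while Pdyn, prodynorphin, gave 6.58, 6.50 and 6.46 against 6.24 and was kept. This Pdyn probe set read much the same in liver, at 6.71 at 3X and 5.96 at 1X. A second Pdyn probe set without a suffix differed by -0.621 in cortex.

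Genes of the synaptic vesicle machinery were called lower more often than higher. Of 34 genes 2 were higher (5.88%), 19 were lower (55.9%) and 17 were kept, with a median of -0.57. Among all genes 13.9% were higher and 16.5% lower, and 28.6% of those bright at 1X were lower. Snap25, a plasma membrane SNARE, gave 7.86, 7.43 and 7.41 at 3X against 11.24 at 1X (-3.67 ± 0.19; adjusted p = 1.21e-05). Its partners moved the same way: Vamp2 of the vesicle membrane gave 5.82, 5.74 and 6.16 at 3X against 8.28 at 1X (-2.37), and Stx1a 6.97, 7.01 and 7.00 against 9.03 (-2.03). All 3 SNAREs were bright on every cortex array. The 3X liver means were 6.17 for Snap25, 4.80 for Vamp2 and 7.15 for Stx1a. The 3X cortex mean of Stx1a (6.995) was thus not above that of liver. Cplx1, complexin (-1.90), Syt1, the calcium sensor of release (-1.45), Syp, synaptophysin (-1.39), and Cltc, the clathrin heavy chain (-2.05), were also called lower, whereas Dnm1, the endocytic GTPase dynamin 1, was 1.48 higher by its brightest probe set and -0.14 by the mean of its probe sets. Ap2s1, a small subunit of the clathrin adaptor AP2, kept its bright signal at 10.28, 10.26 and 10.45 at 3X against 9.95 at 1X.

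The glutamate receptor, GABA and glycine receptor and channel lists had medians of 0.17, -0.07 and -0.03, beside 0.10 for all genes. Shares called higher and lower over all genes were 13.9% and 16.5%. Of 20 glutamate receptor and scaffold genes 5 were higher, 3 were lower and 13 were kept (65%, against 81.3% of all genes). Gria1 and Gria2, subunits of the same AMPA receptors, changed in opposite directions: Gria1 gave 8.82, 8.69 and 8.48 at 3X against 9.84 at 1X (-1.18), and Gria2 gave 7.78, 6.98 and 7.58 against 6.29 (1.16 ± 0.27; adjusted p = 0.0145). The mean over the Gria2 probe sets was -0.34 and was not called (adjusted p = 0.145). Dlg4, the postsynaptic scaffold PSD-95, fell by 1.06. Of 30 voltage-gated ion channel genes 3 were higher, 7 lower and 26 kept, and the largest change among those called was Kcnab2, a potassium channel beta subunit (-1.82). Of 12 GABA and glycine receptor genes 1 was higher, 3 lower and 10 kept. Without 3X replicate 1, the higher calls were 3 in the glutamate list and 0 in the GABA and glycine list. Receptor and channel genes were dimmer at 1X than the vesicle genes, with medians of 4.33, 3.61 and 4.15 in these 3 lists against 6.27 in the vesicle list.

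Axonal and cytoskeletal genes held some of the brightest losses. Uchl1, the abundant neuronal ubiquitin hydrolase, gave 7.74, 7.84 and 7.82 at 3X against 11.51 at 1X (-3.71 ± 0.13; adjusted p = 2.61e-06). Stmn1, stathmin, which destabilizes microtubules, gave 7.86, 7.45 and 8.03 at 3X against 10.97 at 1X (-3.19). Cfl1, the actin-severing protein cofilin, gave 5.04, 5.04 and 4.88 at 3X against 8.58 at 1X (-3.60). Every 3X array lay at least 2.94 below the 1X array for these probe sets. A second Stmn1 probe set without a suffix did not fall (0.341). The neurofilament and axonal list had 4 genes higher and 10 lower of 24, and the actin, tubulin and light-chain list 5 higher (3 without 3X replicate 1) and 16 lower of 37. Shares lower were 41.7% and 43.2%, against 16.5% of all genes and 28.6% of those bright at 1X. Actb, beta-actin, was represented by a probe set with suffix f that was 2.24 higher. The 3′, middle and 5′ control probe sets of its own strand were lower, while those of the opposite strand were higher. The tubulin Tubb6 was kept through another suffix f probe set.

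Astrocyte and oligodendrocyte genes were kept in smaller shares than all genes (81.3%), and the difference was not tested. Genes bright at 1X were kept in 68.8%, and 16 astrocyte and 7 oligodendrocyte genes were bright there. The part of signal level in these shares was not tested. Over all genes 13.9% were called higher and 16.5% lower. Of 27 astrocyte genes 3 were higher, 12 lower and 13 kept (48.1%). Mt3, the brain metallothionein, gave 5.03, 4.87 and 5.19 at 3X against 8.29 at 1X (-3.26), and Mt1 6.96, 7.02 and 6.77 against 9.88 (-2.97). Their relative Mt2 gave 7.21, 7.04 and 7.49 at 3X against 6.85 at 1X and was kept, so these metallothioneins differed widely in their response. Of 17 oligodendrocyte genes 4 were higher, 5 lower and 9 kept (52.9%). Mbp, myelin basic protein, gave 8.29, 8.05 and 8.02 at 3X against 10.81 at 1X (-2.69), whereas Mal, a myelin proteolipid, was kept at 7.64, 7.61 and 7.54 against 7.73. The Mal probe set read 7.31 at 3X and 6.98 at 1X in liver. A second Mbp probe set without a suffix differed by only 0.009.

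Genes of microglia and vessels kept their signal in shares near or above that of all genes (81.3%). These lists were dimmer, with 5 of 19 microglial and 7 of 22 endothelial and mural genes bright at 1X. Calls over all genes were 13.9% higher and 16.5% lower. Of 19 microglial genes 17 were kept (89.5%), 3 were called higher and 1 lower (2 without 3X replicate 2). Fcgr3, an Fc receptor, gave 9.83, 9.82 and 9.78 at 3X against 9.10 at 1X (0.71), and Tyrobp, the DAP12 adaptor, 7.72, 8.10 and 8.07 against 7.01 (0.95). Aif1, the microglial marker Iba1, was kept at 5.37, 5.45 and 5.53 at 3X against 5.44 at 1X. These probe sets read much the same in liver. There Fcgr3 averaged 9.747 at 3X and gave 8.895 at 1X, Tyrobp 7.804 and 7.051, and Aif1 5.585 and 5.45. How much of such signals comes from the named transcript was not tested. Of 22 endothelial and mural genes 18 were kept (81.8%), among them Slc2a1, the glucose transporter of the blood-brain barrier, at 9.51, 9.59 and 9.49 at 3X against 9.63 at 1X. The Slc2a1 probe set also read 9.46 at 3X and 9.18 at 1X in liver. Globins were lower: alpha-globin Hba-a1 gave 4.69, 4.36 and 4.77 at 3X against 7.51 at 1X (-2.90). Both red-cell losses were globins, with Hbb-b2 lower by 1.36 on the log2 scale, and the other 5 of 7 erythroid genes were kept. All 23 genes of the immediate early list stayed short of a called 2-fold change, with 2 called higher (0 without 3X replicate 1, 1 without replicate 3) and 5 lower.

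Several steps of energy metabolism held more lower than higher calls. Over all genes 13.9% were called higher and 16.5% lower, and over genes bright at 1X 13.9% and 28.6%. In the respiratory chain, all 4 subunits of complex II (succinate dehydrogenase) were called lower: Sdhc by -1.66, Sdha by -1.58, Sdhd by -1.50 and Sdhb by -0.98. Sdhb was not called in the fit of all 12 arrays (adjusted p = 0.104). Of these only Sdhd was bright at 3X, at 5.07, 5.25 and 5.09 against 6.63 at 1X. Complex I had 6 of 29 genes higher and 11 lower (37.9%), and complex V 3 higher and 8 lower of 14 (57.1%). Complex III had 2 higher and 3 lower of 9 (33.3%). Complex IV had 3 higher and 3 lower of 15 (20% each way), near the share over all genes. Within complex V, Atp5l fell by 5.60 while Atp5a1, the catalytic-head alpha subunit, gave 9.27, 9.16 and 9.71 at 3X against 9.64 at 1X. No member of the glycolysis list was called higher and 11 of 19 were lower, with a median of -0.81. Pkm, pyruvate kinase, gave 7.15, 7.10 and 6.84 at 3X against 9.64 at 1X (-2.61) through a suffix s probe set, and Tpi1, triosephosphate isomerase, was dim on the 3X arrays at 3.03, 2.59 and 2.95 against 5.96 (-3.10). In the citric acid cycle list 1 gene was higher (0 without 3X replicate 1) and 11 of 20 were lower, among them Fh1, fumarase, which was called lower (-0.55; adjusted p = 0.0149) yet inside 2-fold, at 10.24, 10.12 and 10.23 at 3X against 10.74 at 1X. The Fh1 call was lost in the fit of all 12 arrays (adjusted p = 0.105), with the replicate block (0.0502) and after quantile normalization, which gave -0.18.

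Genes of protein turnover and trafficking were also called lower more often than higher. Ribosomal proteins were called in near equal numbers each way, though not at 2-fold or more. The trafficking, proteasome, ubiquitin, chaperone and splicing lists had 40% to 56.5% of genes called lower. That compares with 16.5% of all genes and 28.6% of genes bright at 1X. The Rab, Arf and coat list had 5 genes higher (3 without 3X replicate 1) and 26 lower of 46 (median -0.68). The proteasome list had 6 higher and 19 lower of 37 (-0.46), the ubiquitin list 1 higher (3 without 3X replicate 2) and 11 lower of 22 (-0.39), and the chaperone list 3 higher (1 without 3X replicate 1) and 18 lower of 40 (-0.34). Hspa8, the constitutive heat shock protein 70, gave 9.03, 8.36 and 9.16 at 3X against 11.46 at 1X (-2.60). Splicing factors had 2 higher and 14 lower of 35, or 1 and 9 without 3X replicate 1. Hnrnph1, an RNA-binding splicing regulator, gave 4.73, 4.60 and 4.57 at 3X against 8.01 at 1X (-3.37). Of 33 cytosolic ribosomal proteins 10 were higher (6 without suffixed probe sets), 11 lower and 17 kept, with a median of 0.13. At 2-fold or more 2 of the 33 were higher and 8 lower, beside 183 and 581 of all 8251 genes. Losses thus outnumbered gains at that size. Rps4x fell by 3.23 and Rps7 by 2.88, while Rpl39 was kept at 9.62, 9.71 and 9.75 against 9.34. A second Rps4x probe set without a suffix did not fall (0.11). Ribosomal protein genes have many processed pseudogenes, so probes may read copies that cannot be told apart here.

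**Figure D3:**
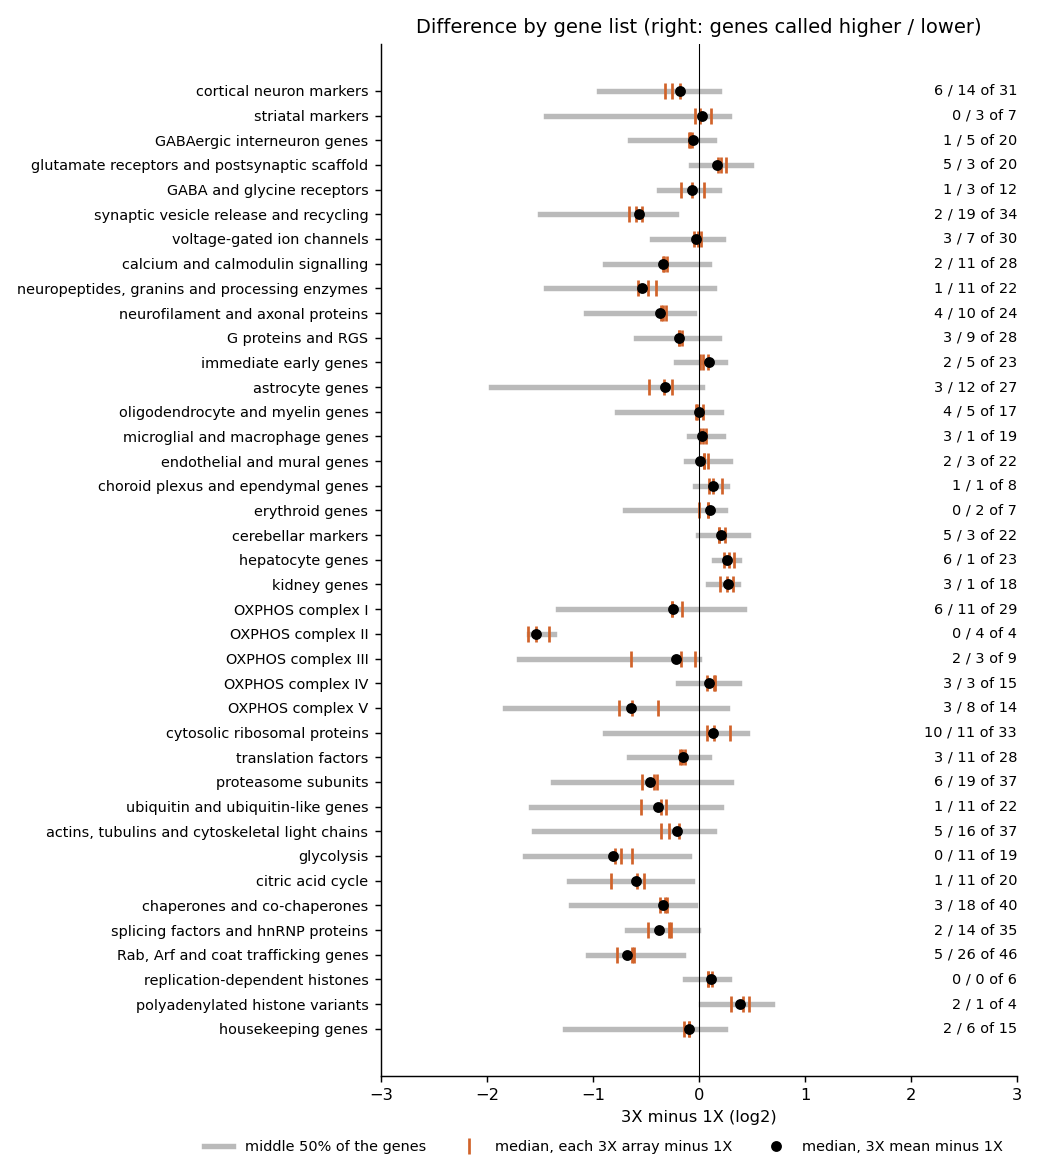
Median 3X minus 1X difference (log2) of the genes of each of 39 lists: black points use the mean of the 3X arrays, orange ticks each 3X array, and grey bars span the middle 50% of the genes. The numbers on the right give genes called higher and lower of those measured; Rab and Arf genes (-0.68), glycolysis (-0.81) and complex II (-1.54) have the lowest medians, and the ticks of the 3X arrays spread most in complex III.

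Different probe sets of a gene often disagreed. Of 68 genes with at least 2 called probe sets whose brighter side was bright, 30 had probe sets called in opposite directions, and 8 had them at 2-fold or more each way. Ndrg2, an astrocyte gene of the N-myc downstream regulated family, had a probe set at 5.63, 5.33 and 5.90 at 3X against 3.32 at 1X (2.31) and another at 5.33, 4.75 and 5.77 at 3X against 7.50 at 1X (-2.23), neither with a suffix. The 3X ranges of the 2 probe sets overlapped, and the values that stood apart were the 1X ones. Their mean difference was 0.04. Mapt, which encodes tau, was 8.17, 8.02 and 7.87 at 3X against 6.10 at 1X by its brightest probe set (1.92), and 4.22, 3.66 and 3.68 against 5.86 by another. Ptgds, prostaglandin D2 synthase, was 10.68, 10.89 and 10.71 at 3X against 8.70 at 1X by a suffix f probe set (2.06), and 6.90, 7.03 and 7.07 against 8.49 by a suffix r probe set (-1.49). Rps28 differed likewise (2.99 and -2.22). The means over the probe sets were -0.13 for Mapt, 0.73 for Ptgds and 0.43 for Rps28. A gene's direction in the lists above therefore holds for the probe set that stood for it.

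**Figure D4:**
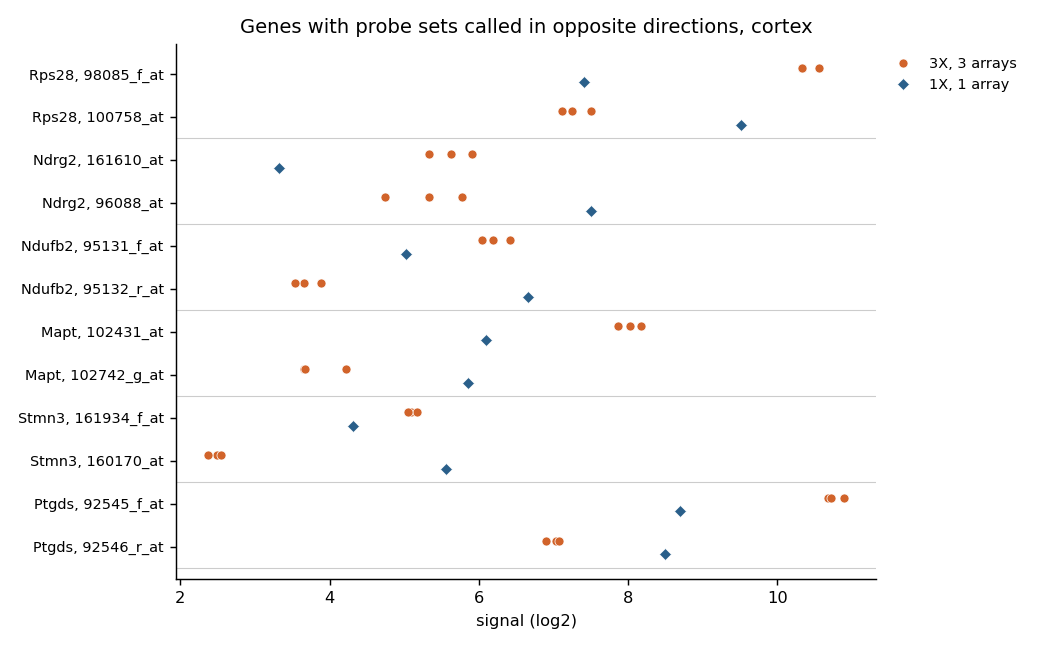
Log2 signal of each cortex array for the 6 genes with the widest gap between probe sets called in opposite directions (orange circles, 3X arrays; blue diamonds, the 1X array). For each gene the upper row lies above and the lower row below the 1X value on all 3X arrays.

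The response of a probe set correlated more closely with its response in another tissue than with that of another probe set of the gene. The 3X minus 1X difference in cortex correlated with that in cerebellum at r = 0.942 over 12422 probe sets, which share no array. Over 751 genes with exactly 2 probe sets without a suffix, the differences of the 2 probe sets correlated at r = 0.148. Most of those signals were dim. For the 45 genes whose probe sets were both bright at 1X, r was 0.446, while the same 90 probe sets gave r = 0.950 between cortex and cerebellum. These values run across probe sets or genes and carry no p.

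**Figure D5:**
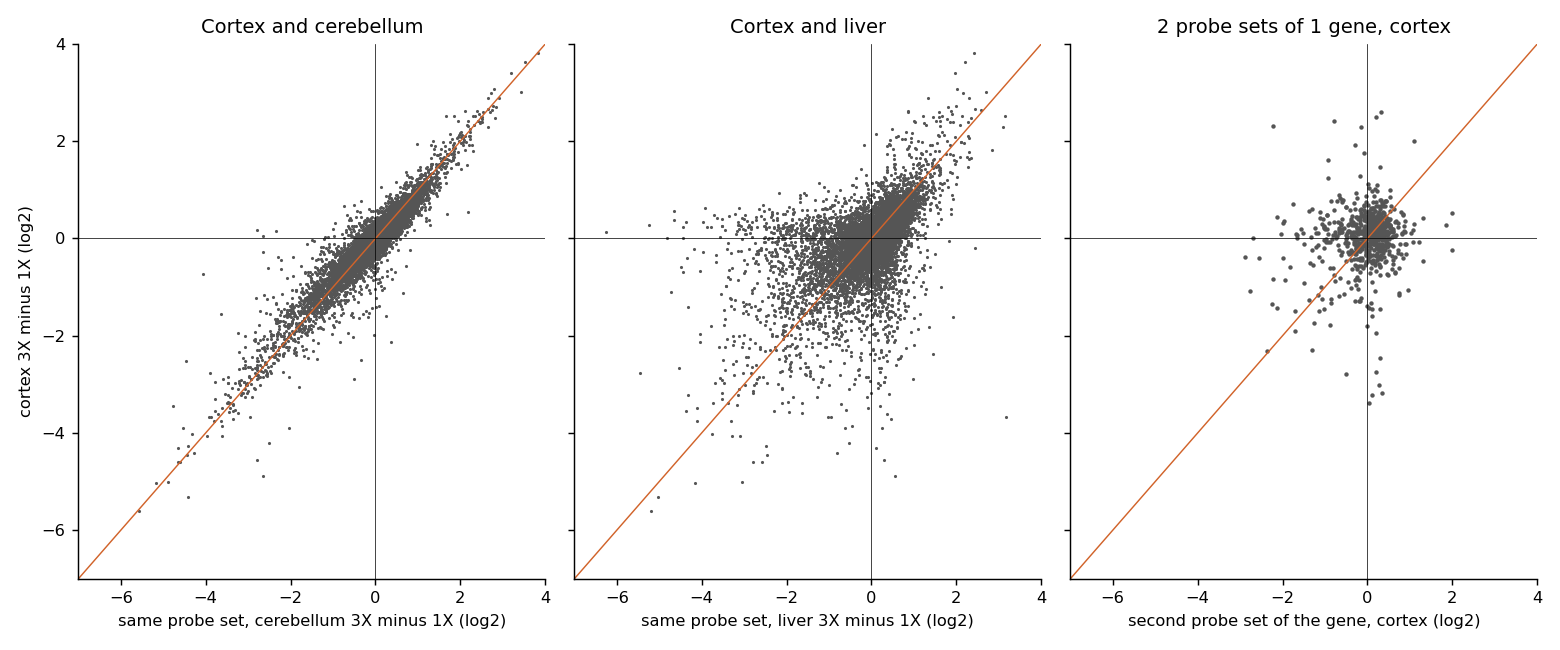
Cortex 3X minus 1X difference (vertical, log2) against the difference of the same probe set in cerebellum (left) and in liver (middle), each over 12422 probe sets, and against that of the second probe set of the gene in cortex (right, 751 genes). The orange line marks equal differences; points follow it closely on the left (r = 0.942), less in the middle (r = 0.559) and hardly on the right (r = 0.148).

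Few responses were called different between cortex and cerebellum. Each tissue had 1 array at 1X, and a response that was not called was not thereby shown to be alike. Stx1a (-1.50) and Npy (-1.28) were among those not called. The test of the difference itself, the interaction in a limma fit of all 12 arrays, called 44 probe sets (0.354%), 25 higher (0.201%) and 19 lower (0.153%) in cortex. Leaving out any 1 replicate of either tissue gave 25 to 30 calls. Of the 19 lower, 18 had a 1X signal at least 2-fold above 1X cerebellum (94.7%, against 0.628% of all probe sets), and all 25 higher ones lay at least 2-fold below it. The 1X arrays enter both quantities, so this is a description. Cck differed by -2.40 (adjusted p = 0.00116): it was lower by 2.89 in cortex, where it began at 8.54, and by 0.50 in cerebellum, where it began at 5.01. Cx3cl1 (-2.22), Sst (-1.74), the neuronal kinase Plk2 (-2.16) and the transcription factor Mef2c (-1.84) differed in the same direction, the Sst difference missing the threshold without cortex 3X replicate 1 (adjusted p = 0.0605) or cerebellum 3X replicate 1 (adjusted p = 0.0507). The myelin genes Mobp (1.94) and Mag (1.92) lost less in cortex, where they began lower. The highest differences were Gpx3 (3.34), Miox (2.98) and Kap (2.70), genes known for strong expression in kidney. Kap was 8.66 on the 1X cerebellum array and averaged 6.01 on the 3X cerebellum arrays, beside 4.92, 5.15 and 4.83 at 3X and 4.92 at 1X in cortex. The cerebellum arrays therefore stand apart for these genes, no other 1X cerebellum array exists here to replace it, and the part of kidney RNA in these values was not tested. The median of 18 kidney genes was 3.23 on the 1X cerebellum array and 2.67 on the 1X cortex array.

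Against liver, 1322 probe sets differed in response (10.6%), 663 higher (5.34%) and 659 lower (5.31%) in cortex. Of those lower, 75.3% began at least 2-fold above 1X liver, and of those higher, 81.0% began at least 2-fold below it, against 6.86% and 6.84% of all probe sets. The 1X arrays enter both the calls and these shares, which favours such shares, so they are a description. Uchl1 is an example: it averaged 7.80 at 3X and began at 11.51 at 1X in cortex, and in liver averaged 7.79 at 3X and 7.33 at 1X. The 3X means of the 2 tissues were thus close where the 1X signals were far apart. Sst (difference of the responses -4.83), Cx3cl1 (-5.45) and Vsnl1 (-4.41) lost more in cortex, and for Sst and Cx3cl1 the 3X means of cortex were 3.25 and 4.36 against 3.47 and 4.26 in liver. Snap25 had the lowest value (-6.85), but there liver changed too: its 3X liver mean was 6.17 and its 1X liver value 2.99. Hamp, the liver iron hormone hepcidin (6.38), and Plg, plasminogen (5.22), were dim on every cortex array. Their 3X minus 1X differences were -6.24 and -4.65 in liver, beside 0.13 and 0.56 in cortex.

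Fewer probe sets stood at least 2-fold above the other tissues in cortex at 3X than at 1X. The 852 probe sets at least 2-fold above liver at 1X had a median gap of 0.61 at 3X and 1.57 at 1X, and 277 of them (32.5%) were also at least 2-fold above liver at 3X. In 70 (8.22%) the 3X mean of cortex was not above that of liver. Choosing at 1X favours wide gaps at 1X, so the choice was also made at 3X: the 393 probe sets at least 2-fold above liver at 3X had a median gap of 1.43 at 3X and 1.48 at 1X, and 277 of those (70.5%) passed at 1X. Against cerebellum 78 probe sets passed at 1X and 22 at 3X, of which 17 were the same. Those 17 are 21.8% of the 1X choice and 77.3% of the 3X choice.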

How the data were processed

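The arrays of 3 tissues (cortex, cerebellum and liver), with 3 technical 3X replicates and 1 array at 1X each, were grouped by their labels. The values are the log2 signals of the authors' deposited table, which were made by RMA per the submitters' processing notes. The log base is taken from the highest value, 14.46, above the natural log of the scanner limit (11.09). For RMA, neither the version nor the annotation nor a detection filter is named in the labels or files used. Symbols came from the platform annotation: 10833 probe sets had 1 symbol, 396 had several, and 10817 were matched to RefSeq GRCm38.p6, with 0 symbols changed.

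For the cortex difference, limma 3.58.1 under R 4.3.3 was fitted to the 4 cortex arrays (lmFit and eBayes, two-sided, Benjamini-Hochberg over 12422 probe sets), with 2 residual and 5.95 prior degrees of freedom. Every adjusted p for a cortex difference is from this fit, and those for differences between tissues are from the interaction in a fit of 12 arrays. Number of arrays limits the precision. The scripts were tested on simulated data. No sequence was printed. The comparison by protein length was not analysed here.

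The members and the 39 gene lists were chosen with earlier results of these data known. Named genes had 1 symbol and were the 10 highest and 10 lowest called differences without a suffix and 5 each with one, whose brighter side was above the 75th percentile; the 10 brightest kept genes; up to 4 called and 2 kept genes per list; the 6 widest opposed genes; 5 in each direction for each difference between tissues; and the 5 with the largest 3X SD. Genes defining the tissue were named whatever their values (Slc17a7 had no probe set named here, and 1 item is not reported here). Also named, after their values were seen, were Ppp3ca, Gad2, Cplx1, Syt1, Syp and Dnm1. Alternatives were other scalings, filters, fits, a replicate block and leaving out each replicate.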

Additional observations from a re-analysis of the deposited data

Results flagged for a closer look

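These results are listed because the cortex 3X minus 1X difference itself differed from that of another tissue in the interaction of the 12-array limma fit (adjusted p under 0.05 over 12422 probe sets). Each value is the cortex response minus the response of the other tissue, on the log2 scale, from 3 3X arrays and 1 1X array per tissue. The number of probe sets called was 44 against cerebellum and 1322 against liver.

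Against cerebellum, the neuropeptide Cck (-2.40), the chemokine Cx3cl1 (-2.22), the kinase Plk2 (-2.16), the transcription factor Mef2c (-1.84), the interneuron peptide Sst (-1.74) and the GTPase Arf3 (-1.69) had lower values in cortex. The myelin genes Mag (1.92) and Mobp (1.94) and the genes strong in kidney, Kap (2.70), Miox (2.98) and Gpx3 (3.34), had higher values.

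Against liver, the lowest value was that of the SNARE Snap25 (-6.85), for which the 3X liver mean (6.17) lay above the 1X liver signal (2.99) while cortex was lower at 3X. Other genes of vesicle release and peptide secretion were Pcsk1n (-3.82), Cck (-3.88), Sst (-4.83), Npy (-2.31), Cplx1 (-2.40), Stx1a (-2.39), Vamp2 (-2.34), Syp (-2.24) and Syt1 (-1.79). Neuronal signalling genes were Cx3cl1 (-5.45), Vsnl1 (-4.41), Gad1 (-3.18), Plk2 (-2.26), Kcnab2 (-2.13), Dlg4 (-1.91), Gria1 (-1.82), Mef2c (-1.79), Ppp3r1 (-1.43), Gnb1 by a suffix g probe set (-2.92), Tbr1 (-1.10) and Nrgn (-0.97), with Ppp3ca (1.54) and the exchanger Clcn3 (2.05) on the other side. Axonal and cytoskeletal genes were Uchl1 (-4.17), Stmn1 (-3.18), Stmn2 by a suffix g probe set (-3.40), Mapt by a suffix g probe set (-2.38), Septin7 (-2.01), Tuba1c (-1.98), Actg1 (-1.95), Cfl1 (-1.95) and Dynll2 (-1.80), with Actb at 1.77. Glial genes were Mt3 (-3.16), Mobp (-2.88), Mbp (-2.40), Ptgds by a suffix r probe set (-1.90) and Mag (-1.18), with Mt1 at 0.73. The GTPases Arf3 (-3.67) and Arf1 (-0.97), the glycolytic enzyme Pkm (-3.18), the splicing factor Hnrnph1 (-1.41) and Gpx3 (-0.93) had lower values in cortex. Sdha (0.71), Rps28 by a suffix f probe set (0.84), Sdhd (1.47) and the liver genes Plg (5.22) and Hamp (6.38) had higher values. Gpx3, Plg and Hamp were dim in cortex, and liver itself was lower at 3X for Plg (-4.65) and Hamp (-6.24).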

How the results depend on the processing

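Of 12422 probe sets, 3710 were called, 1106 of them at 2-fold or more (297 higher, 809 lower), and 10159 were kept. With 1 value per gene, the mean of its probe sets, 615 were called at 2-fold or more, and the differences changed sign or lost the gene's named direction for Gria2 (-0.338), Mapt (-0.129), Rps28 (0.430), Ndrg2 (0.040), Ptgds (0.734) and Dnm1 (-0.145). Keeping only probe sets above the median level left fewer to test: 2251 were called, 4633 kept, and 27 and 856 differed in response from cerebellum and liver, against 44 and 1322. Leaving out 1 3X replicate gave 2513 to 4371 called, 1082 to 1129 at 2-fold or more and 9729 to 10426 kept, with 25 to 30 differing from cerebellum and 1123 to 1892 from liver. Without suffixed probe sets 115 were at least 2-fold higher and 699 lower. Median centring gave 2105 higher and 1797 lower calls and a median difference of 0.14, against 0.11 as deposited and 0.08 after quantile normalization. Under these scalings, the trend and robust option and the 12-array fit, the 5 counts stayed within 1.5 times. The 1X cortex array has no replicate number, so its 4-array fit cannot be blocked. Deviations of same-numbered 3X replicates correlated across tissues at r = -0.10 to 0.34, and at 0.29 to 0.34 for replicate 3. Not every pair was above 0.1, nor did every array correlate best with its own number, so the numbers were not taken to pair arrays. A replicate block in the 12-array fit gave 3576 called, 1100 at 2-fold or more, 9992 kept, 36 differing from cerebellum and 1433 from liver. The cause of the changes by gene mean and replicate was not tested. The variation of the 1X array itself was not measured, and dim signals limit the ratios that RMA values can show.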
